A study of Mus musculus with 22 samples.

Results

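The simple epithelial keratins Krt7, Krt8, Krt18 and Krt19 were described by group and by library in mouse mammary cells grown in culture, in allografts made from such cells, and in primary mammary cancers with their cultures. The members were chosen by symbol, with earlier results of these data known. They are 4 of the 23993 gene symbols in a first table of 16 libraries and 4 of the 23490 in a second table of 6, where 52 and 50 entries are keratins. All 4 passed the filter on low values in every comparison.

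Keratins are the intermediate filament proteins of epithelial cells, and each filament is built from obligate pairs of a type II and a type I chain. Krt7 and Krt8 are type II and Krt18 and Krt19 are type I. Krt8 and Krt18 form the primary pair of simple epithelia, while Krt7 and Krt19 are added in ductal and glandular epithelia. In the mammary gland these keratins mark luminal cells, whereas Krt5 and Krt14 mark basal cells, and a chain without a partner is usually degraded.

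The study set a mammary-optimised medium (EpiC) against the conditional reprogramming condition (CRC), which commonly relies on irradiated feeder fibroblasts. All cells came from nulliparous female C57Bl/6 mice and shared a single null allele of Trp53 and Cre recombinase under the MMTV promoter, which is active mainly in mammary epithelium. In addition they carried Tet-op-CYP19A1 with MMTV-rtTA (an inducible aromatase, here CYP19A1), Brca1fl11/WT (Brca1het) or Brca1fl11/fl11 (Brca1hom). Each genotype gave 1 CRC and 1 EpiC culture, numbered 1 (CYP19A1), 2 (Brca1het) and 3 (Brca1hom). The 7 CRC allografts were 6C (CYP19A1), 10B, 10C and 11C (Brca1het), and 1, 2 and 12 (Brca1hom). The 3 EpiC allografts were 7B (CYP19A1), 4C and 5A (Brca1het). Allografts grew in mammary glands of NU (NCr)-Foxn1nu hosts, which lack mature T cells but keep other host cells, and host and graft RNA are both of mouse. The second table held 2 primary cancers of the Brca1het genotype, each with a CRC and an EpiC culture. The titles of both cancers share a number, so they may come from 1 animal. Age, passage and use of an inducer are not given in the labels. Whether the libraries within a group are independent animals or cultures is not stated, so the p-values reflect only how far these samples spread, which may be technical.

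Krt8 and Krt18 are neighbours that are transcribed away from each other on chromosome 15, with 2 predicted genes between them. Krt7 lies on the same chromosome, separated from Krt8 by 31 genes, of which 23 are keratins, and Krt19 lies on chromosome 11 (GENCODE and RefSeq annotation of GRCm38). The 250 bases before the RefSeq start (build GRCm38.p6) are shown for the 3 members on chromosome 15, because genes of the Zeb and Snail families, whose proteins bind CACCTG, were among those compared with the keratins. Each of the 3 held 1 match to CACCTG, shown in capitals.
Krt7, chr15:101412153-101412402, plus strand: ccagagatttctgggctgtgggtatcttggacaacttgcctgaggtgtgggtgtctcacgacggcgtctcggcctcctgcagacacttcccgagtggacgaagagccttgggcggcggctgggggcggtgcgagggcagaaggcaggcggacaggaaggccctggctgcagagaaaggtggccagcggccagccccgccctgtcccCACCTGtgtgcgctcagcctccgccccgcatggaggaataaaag
Krt8, chr15:102004343-102004592, minus strand: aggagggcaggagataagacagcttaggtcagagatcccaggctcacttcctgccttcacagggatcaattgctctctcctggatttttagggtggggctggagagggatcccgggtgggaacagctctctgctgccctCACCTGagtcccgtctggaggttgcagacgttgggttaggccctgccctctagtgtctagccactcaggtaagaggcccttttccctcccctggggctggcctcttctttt
Krt18, chr15:102027966-102028215, plus strand: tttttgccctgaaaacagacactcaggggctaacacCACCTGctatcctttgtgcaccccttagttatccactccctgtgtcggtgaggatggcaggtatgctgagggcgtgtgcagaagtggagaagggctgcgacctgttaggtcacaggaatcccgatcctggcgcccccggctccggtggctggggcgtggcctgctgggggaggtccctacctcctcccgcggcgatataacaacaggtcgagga
The matches began at −44 in Krt7, −111 in Krt8 and −214 in Krt18, counted from the RefSeq start. CACCTG occurred on either strand in 17.2% of 32851 mouse promoter windows of this length. GGGCGG occurred 4 times in Krt7 and in neither of the others (32.7% of windows), and TATAAA (12.4%), TGANTCA (6.75%) and CCAAT (33.8%) had no match in the 3 windows. A match is a description of the letters, not of binding.

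Levels are FPKM (fragments per length of transcript and per total of mapped fragments), which are set per length and so can be compared between genes within a library. The FPKM of all genes summed to 466441 to 825216 per library in the first table. In the second, 5 libraries summed to 607519 to 710511 and the CRC culture from cancer 2 to 1615927. The number of fragments behind a value is unknown. The libraries that stood apart were EpiC culture 3, in which the adhesion genes Epcam and Cdh1 (E-cadherin) stood at 0.208 and 0.106 FPKM against 253 to 454 and 100 to 199 in the other 5 cultures, and CRC allograft 1, whose Epcam of 25.6 FPKM was the highest of any allograft (3.01 was the median of the EpiC and 1.33 that of the CRC allografts). Results that rest on them are given with and without them.

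In the cultures other than EpiC culture 3, all 4 keratins were abundant. Krt8, the common type II chain of simple epithelia, stood at 220, 725 and 664 FPKM in CRC cultures 1, 2 and 3 and at 205, 460 and 0.275 in EpiC cultures 1, 2 and 3. Krt18, its type I partner, stood at 238, 943 and 672 FPKM in CRC cultures 1, 2 and 3 and at 317, 533 and 0.684 in EpiC cultures 1, 2 and 3. For both genes culture 2 of either medium was the highest of its kind, and the CRC and EpiC ranges overlapped. Krt7, a type II chain of ductal epithelium, stood at 66.0, 417 and 376 FPKM in CRC cultures 1, 2 and 3 and at 650, 475 and 0.317 in EpiC cultures 1, 2 and 3. Krt19, the smallest type I keratin, stood at 59.0, 192 and 49.9 FPKM in CRC cultures 1, 2 and 3 and at 248, 299 and 11.6 in EpiC cultures 1, 2 and 3. Both genes were therefore higher in EpiC than in CRC for the CYP19A1 and Brca1het cells and lower in EpiC for the Brca1hom cells.

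In the allografts Krt8 remained an abundant transcript, and Krt7 and Krt19 were low. Krt8 ranged from 17.6 FPKM in CRC allograft 6C to 366 in 10C among the 7 CRC allografts, with a median of 227, and stood at 57.0, 76.9 and 719 in EpiC allografts 7B, 4C and 5A. The other 6 CRC allografts lay within 202 to 366 FPKM, and of the 16 libraries only CRC culture 2 was above EpiC allograft 5A. Krt18 ranged from 18.1 FPKM in CRC allograft 6C to 183 in CRC allograft 1, with a median of 74.4, and stood at 121, 120 and 153 in EpiC allografts 7B, 4C and 5A. Every allograft was below the 5 cultures other than EpiC culture 3 for Krt18. Krt7 ranged from 0.565 FPKM in CRC allograft 2 to 42.3 in CRC allograft 1, with a median of 1.61, and stood at 7.47, 9.81 and 2.02 in EpiC allografts 7B, 4C and 5A. Krt19 ranged from 0.309 FPKM in CRC allograft 6C to 6.74 in CRC allograft 12, with a median of 3.83, and stood at 9.49, 10.1 and 10.9 in EpiC allografts 7B, 4C and 5A. For Krt19 no allograft reached any culture, while for Krt7 only EpiC culture 3 lay below the allografts.

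**Figure D1:**
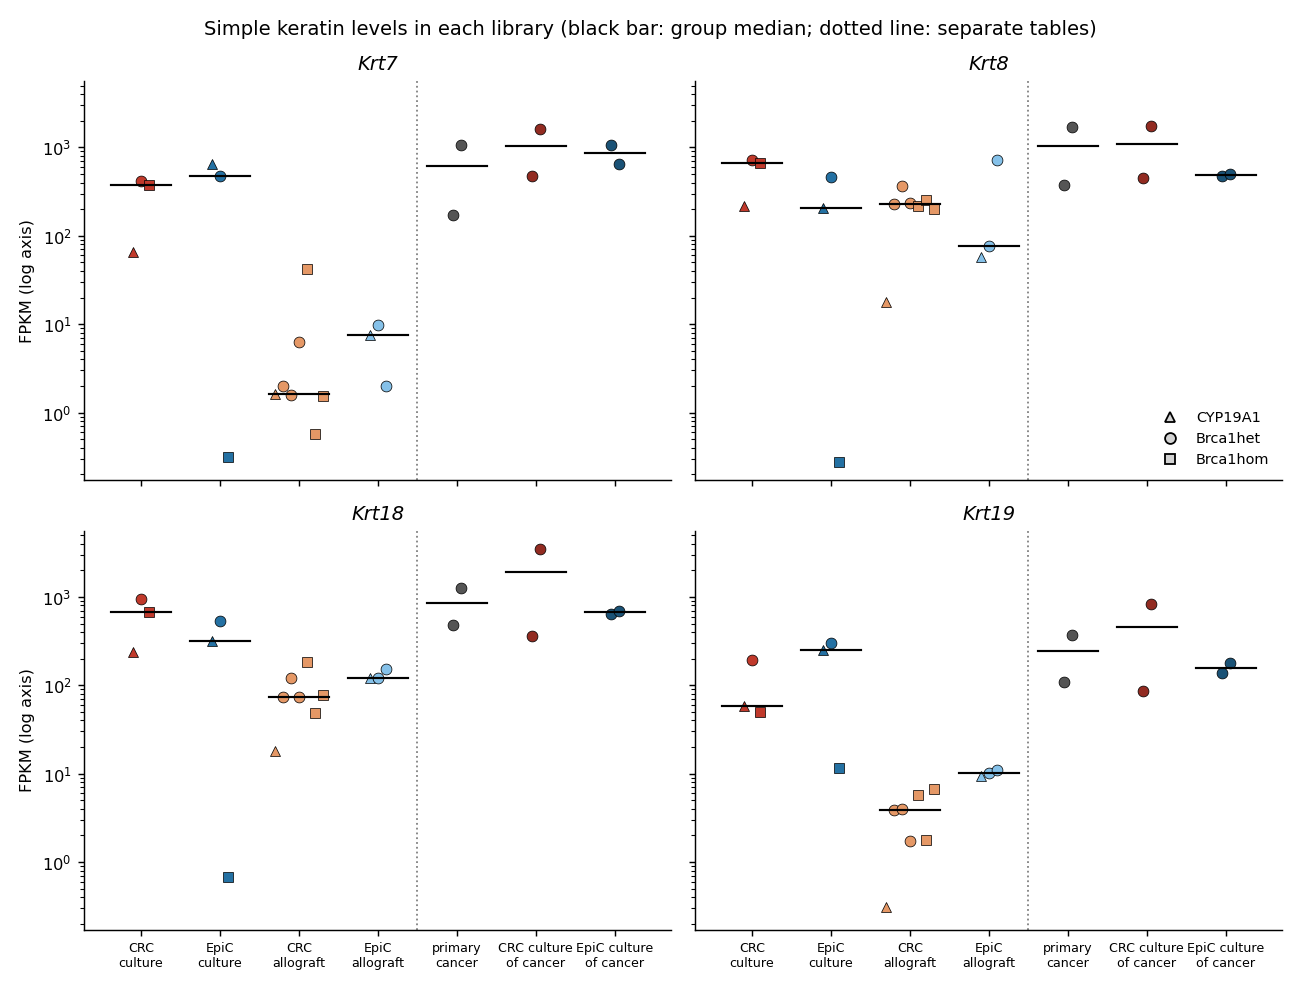
FPKM of each keratin (log axis) in every library by group, with genotype as the point shape and the group median as a bar; the dotted line separates tables that were normalised separately. Krt7 and Krt19 lie lower in every allograft than in the cultures other than EpiC culture 3, while Krt8 in most allografts overlaps the cultures. For Krt7 the gap is small between CRC allograft 1 (42.3 FPKM) and CRC culture 1 (66 FPKM).

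The allografts were compared with the cultures with limma on log2(FPKM + 1), in a model that also held genotype and medium, and calls were made below an adjusted p of 0.05 (Benjamini-Hochberg, over all 12325 genes tested). Of the 4 keratins 2 were called, both lower in allografts, where 34.5% of all genes were called in either direction and 16.4% as lower. Krt7 fell from 331 ± 250 FPKM in cultures (SD, n = 6) to 7.52 ± 12.6 in allografts (SD, n = 10), a difference of −4.92 on the log2(FPKM + 1) scale (SE 1.18, limma adjusted p = 0.00546). Krt19 fell from 143 ± 119 to 5.46 ± 3.77 FPKM, a log2 difference of −4.07 (SE 0.61, adjusted p = 1.83e-04). Krt8 stood at 379 ± 285 FPKM in cultures and 238 ± 199 in allografts, a log2 difference of −0.60 with a 95% interval of −2.87 to 1.67 (adjusted p = 0.691). Krt18 stood at 451 ± 336 and 99.2 ± 49.8 FPKM, a log2 difference of −1.54 with an interval of −3.75 to 0.66 (adjusted p = 0.26). This scale understates the change of low values. The median log2 difference was −2.81 over the 4 keratins and 0.01 over all genes.

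Leaving out EpiC culture 3 changed which keratins were called. All 4 were then lower in allografts, with Krt8 at −1.74 (adjusted p = 0.0097) and Krt18 at −2.68 (adjusted p = 1.12e-04) on the log2 scale. The calls of Krt8 and Krt18 thus depended on that library, and the labels give no ground to leave it out. Epcam (0.208 FPKM) and Cdh1 (0.106) were near 0 in EpiC culture 3. The fibroblast marker Col1a1 stood at 987 FPKM there, against 1436 and 657 in EpiC cultures 1 and 2. Pdgfra stood at 190, against 70.2 and 75.9. The differences with it kept thus include a culture with little epithelial marker RNA, and the part of its cell mixture was not tested.

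Within CRC, 2 of the 4 keratins were called as lower in allografts, where 39.6% of genes were called. Krt7 fell from 286 ± 192 FPKM in CRC cultures (n = 3) to 7.98 ± 15.2 in CRC allografts (n = 7), a log2 difference of −5.58 (SE 1.55, limma adjusted p = 0.0112). Krt19 fell from 100 ± 79.6 to 3.44 ± 2.31 FPKM, a log2 difference of −4.48 (SE 0.80, adjusted p = 5.63e-04). For Krt18, at 618 ± 355 against 85.4 ± 53.6 FPKM, the difference was −2.92 (SE 1.25, adjusted p = 0.0771), although the highest allograft (183) was below the lowest CRC culture (238). For Krt8, at 536 ± 276 against 218 ± 104 FPKM, it was −1.67 (SE 1.35, adjusted p = 0.347). The call of Krt7 was lost without CRC culture 2 (adjusted p = 0.0612) or CRC culture 3 (adjusted p = 0.105), and Krt18 was called without CRC allograft 1 (−3.30, adjusted p = 0.0461) or EpiC culture 1 (−3.13, adjusted p = 0.0426). All 4 keratins were called without EpiC culture 3, which enters this fit through the genotype terms and the shared spread (Krt8 −1.91, adjusted p = 0.0188, and Krt18 −3.16, adjusted p = 7.00e-05).

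Within EpiC, 1 of the 4 keratins was called, where 14.2% of genes were called. Krt19 fell from 186 ± 153 FPKM in EpiC cultures to 10.2 ± 0.714 in EpiC allografts (n = 3 each), a log2 difference of −3.47 (SE 0.96, limma adjusted p = 0.028). This call was lost without EpiC culture 1 (adjusted p = 0.161) or 2 (0.155), or without EpiC allograft 7B (0.0632), 4C (0.0667) or 5A (0.0522). Krt7 stood at 375 ± 336 against 6.43 ± 3.99 FPKM (log2 −3.95, adjusted p = 0.183), Krt8 at 222 ± 230 against 284 ± 377 (log2 0.95) and Krt18 at 283 ± 268 against 131 ± 18.5 (log2 0.45). Without EpiC culture 3, 3 were called as lower, with Krt7 at −6.50 (adjusted p = 0.00222), Krt18 at −1.86 (0.0459) and Krt19, while Krt8 turned to −1.44 (0.252).

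The change from culture to allograft was not shown to differ between CRC and EpiC for any of the 4. The interaction of medium and state called 0 of them with limma, where 12.2% of genes were called and 26.2% had an unadjusted p under 0.05. The differences of differences were −1.64 for Krt7, −2.62 for Krt8, −3.38 for Krt18 and −1.01 for Krt19 on the log2 scale, with adjusted p from 0.302 to 0.723. Without EpiC culture 3 they were 0.66, −0.47, −1.30 and 0.15 in the same order, and again 0 were called.

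Markers of other cell types moved with the same contrast. Of 10 epithelial markers 10 were called as lower in allografts, and their summed level lay between 1487 and 1732 FPKM in CRC cultures, 2.66 and 1530.5 in EpiC cultures, 2.12 and 109 in CRC allografts and 15.4 and 25.5 in EpiC allografts. Of 10 macrophage markers 10 were called as higher in allografts (3907 to 12800.3 FPKM in sum, against 7.47 to 55.4 in cultures). C1qa, a complement gene of macrophages, was listed at 0 in 1 CRC culture. Of 7 tested endothelial markers 7 were called as higher (54.4 to 178 against 0.667 to 4.63 FPKM). Of 8 fibroblast markers 4 were called as higher, with sums of 29.5 to 55.8 FPKM in CRC cultures, 3372 to 6317 in EpiC cultures and 674 to 4889 in allografts. All 3 tested lymphocyte markers were called as higher, and 0 of 8 skeletal muscle and 0 of 4 adipocyte markers were called. Of 6 tested mammary luminal markers other than these keratins 1 was called as higher and 2 as lower. In such bulk samples fewer epithelial cells and less keratin RNA per cell cannot be told apart, and the part of the cell mixture in these results was not tested.

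Set against Epcam within a library, the 4 keratins divided into 2 pairs. The log2 ratio of Krt8 to Epcam lay between −1.15 and 1.46 in the 6 cultures and between 3.08 and 8.82 in the 10 allografts, without overlap. For Krt18 the ranges were −0.52 to 1.84 and 2.83 to 7.10, again without overlap. For Krt7 they were −1.94 to 0.74 and −0.16 to 3.56, and for Krt19 −2.41 to 5.24 and −2.15 to 2.79, so that both overlapped. The same division held against Cdh1, with Krt8 at 0.31 to 2.20 in cultures and 2.46 to 8.68 in allografts and Krt18 at 0.49 to 2.48 and 3.10 to 6.33. All these ratios had 0.1 FPKM added to each value. In EpiC culture 3 the log2 ratio to Epcam was 0.28 for Krt8 and 5.24 for Krt19. Krt8 (0.275 FPKM) and Epcam (0.208) were both near 0 there, so the ratio of Krt8 is uncertain in that library. Krt19 stood at 11.6 FPKM. These ratios were not tested.

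**Figure D2:**
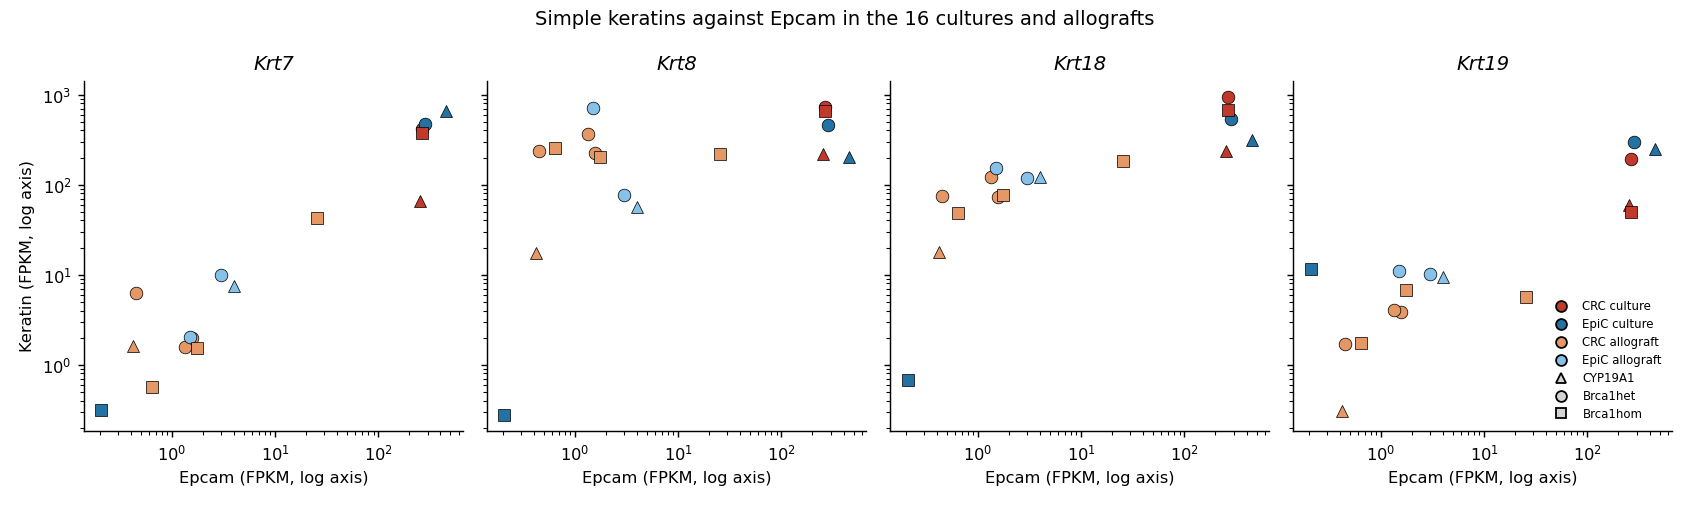
FPKM of each keratin against FPKM of Epcam (both log axes) in the 16 cultures and allografts, with colour for group and shape for genotype. Krt7 lies at 66 to 650 FPKM in the 5 cultures with high Epcam and at 0.317 to 42.3 in the other 11 libraries. Krt8 holds between 17.6 and 719 FPKM in allografts with Epcam at 0.419 to 25.6.

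The proportions among the keratins were compared as log2 ratios of FPKM + 0.1 with exact two-sided permutation tests, adjusted over 9 ratio comparisons. These tests left out genotype and medium, although CRC gave 7 of the 10 allografts and 3 of the 6 cultures. The ratio of Krt7 to Krt8, both type II, was −0.25 ± 1.16 in cultures (SD, n = 6) and −5.53 ± 2.46 in allografts (n = 10), a 38.9-fold lower ratio (exact permutation p = 0.00025, the smallest these sample numbers allow, adjusted p = 0.00225). It was lower in 10 of 10 allografts than in every culture, from 0.194 Krt7 per Krt8 in CRC allograft 1 down to 0.0022 in CRC allograft 2, against 0.30 to 3.17 in cultures. The ratio of Krt19 to Krt18, both type I, was −0.89 ± 2.63 in cultures and −4.42 ± 0.76 in allografts, an 11.5-fold lower ratio (exact permutation p = 0.000999, adjusted p = 0.0045). It lay below every culture in 7 of 10 allografts, with CRC culture 3 the lowest culture at −3.75. Without EpiC culture 3 this difference went from −3.53 to −2.57 on the log2 scale (adjusted p = 0.012). Leaving out any 1 library kept both differences past the threshold, with adjusted p of at most 0.00599 and 0.012.

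Krt8 and Krt18 also parted from each other in most allografts. Cultures held 0.402 to 0.988 Krt8 per Krt18, below equality in 6 of 6. In CRC allografts 10B, 10C, 11C, 2 and 12 the ratio was 3.10, 2.99, 3.19, 5.29 and 2.61, in CRC allograft 1 it was 1.19 and in EpiC allograft 5A it was 4.70. Those 7 stood above every culture, while 6C (0.975), 4C (0.640) and 7B (0.470) did not. The log2 ratio was 0.94 ± 1.22 over the 10 allografts and −0.40 ± 0.39 over the 6 cultures (mean ± SD), and the difference of 1.34 did not pass after adjustment (exact permutation p = 0.026, adjusted p = 0.0779). It passed without EpiC allograft 7B (1.57, adjusted p = 0.0228) or 4C (1.52, adjusted p = 0.0408), a setting chosen after the values were seen. Krt8 shares sequence with other annotated genes, which bears on this ratio: 29.7% of the 50-base words of its longest GENCODE transcript also occur in another gene, 26.9% in the pseudogene Krt8-ps, which is in neither table. For Krt18, Krt7 and Krt19 the shares were 0.72%, 0.222% and 0%. How reads shared with Krt8-ps were assigned is not given in the sources used here, so the level of Krt8 is uncertain to that extent in every library.

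**Figure D3:**
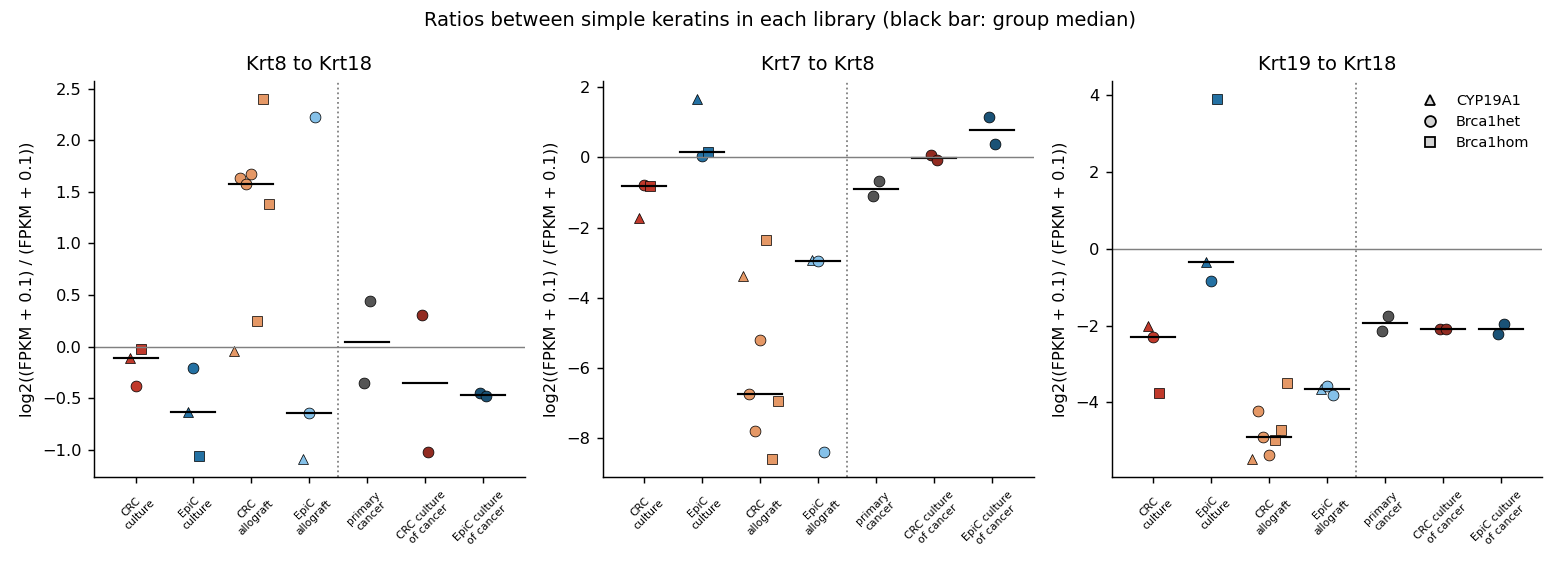
Log2 ratios of FPKM + 0.1 between keratins in each library by group, with genotype as the point shape, the group median as a bar and a dotted line between the separately normalised tables. All 10 allografts lie below the 6 cultures for Krt7 to Krt8, and 7 of 10 lie above them for Krt8 to Krt18.

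The make-up of the keratin pool shifted accordingly. Krt8 made up 37.7, 31.9 and 37.7% of the summed FPKM of the 4 keratins in CRC cultures 1, 2 and 3 and 14.4, 26.0 and 2.14% in EpiC cultures 1, 2 and 3. In the CRC allografts it made up 46.8 to 83.5%, and in EpiC allografts 7B, 4C and 5A 29.2, 35.4 and 81.3%. Krt7 supplied 45.8% of the pool in EpiC culture 1, its highest share in any culture, and at most 9.41% in any allograft. Krt19 supplied 90.1% of the small pool of EpiC culture 3 (12.8 FPKM in sum). Among all keratins, Krt8 was the most abundant in 7 of 10 allografts and Krt18 in the other 3. The 4 genes made up 73.9 to 98.4% of keratin FPKM in allografts and 80.0, 91.9 and 55.5% in EpiC cultures 1, 2 and 3, but 4.45, 11.7 and 9.17% in CRC cultures 1, 2 and 3. In CRC cultures the basal keratins Krt5 (4450.1 to 5457 FPKM) and Krt14 (3653 to 8418) took most of the rest.

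**Figure D4:**
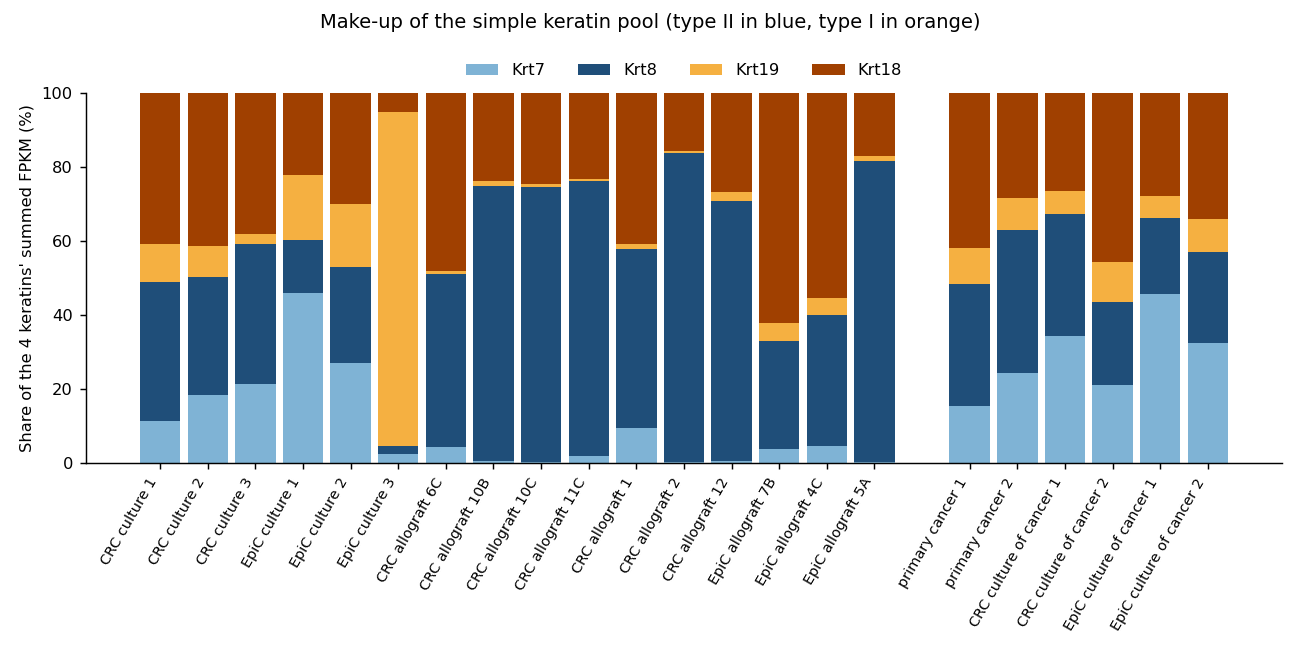
Share in percent of the summed FPKM of Krt7, Krt8, Krt18 and Krt19 taken by each gene, 1 bar per library, with type II chains in blue and type I in orange. Krt8 takes 70.2 to 83.5% in 6 of the 10 allografts, and Krt7 and Krt19 together are a small share of every allograft bar.

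The media were compared within the cultures, with genotype in the model. With limma, 0 of the 4 keratins were called, where 23.2% of genes were called and 42.2% had an unadjusted p under 0.05. The log2 differences, CRC minus EpiC, were 1.56 for Krt7 (95% interval −4.53 to 7.66, adjusted p = 0.631), 3.26 for Krt8 (−1.89 to 8.41, adjusted p = 0.261), 3.02 for Krt18 (−2.04 to 8.08, adjusted p = 0.284) and −0.22 for Krt19 (−2.38 to 1.93, adjusted p = 0.852). Without EpiC culture 3 the differences were −1.74 for Krt7, 0.38 for Krt8, 0.21 for Krt18 and −1.34 for Krt19, and 0 of the 4 were called (limma adjusted p from 0.0772 to 0.714). The ratio of Krt7 to Krt8 was lower in 3 of 3 CRC cultures than in every EpiC culture, at −1.12 ± 0.54 against 0.62 ± 0.90 (exact permutation p = 0.1, the smallest that 3 against 3 allows, adjusted p = 0.15). The ratio of Krt19 to Krt18 was likewise lower in 3 of 3, at −2.69 ± 0.93 against 0.90 ± 2.60 (exact permutation p = 0.1, adjusted p = 0.15). EpiC culture 3 stood at 3.89 and EpiC cultures 1 and 2 at −0.35 and −0.83. Without EpiC culture 3 the difference in this ratio went from −3.59 to −2.09. Both ratio tests left out genotype, which pairs these cultures.

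Between CRC and EpiC allografts, again with genotype in the model, 0 of the 4 keratins were called with limma, where 0.00833% of genes were called and 8.43% had an unadjusted p under 0.05. Brca1hom had CRC allografts only, so the log2 differences of this model rest on the CYP19A1 and Brca1het allografts. The Brca1hom allografts enter the group means and the spread, but not these differences. Krt19 stood at 3.44 ± 2.31 FPKM in the 7 CRC allografts and 10.2 ± 0.714 in the 3 EpiC allografts (mean ± SD), with all 7 CRC allografts below all 3 EpiC allografts, and a log2 difference of −1.95 (SE 0.44, 95% interval −2.93 to −0.96, unadjusted p = 0.00137, adjusted p = 0.271). Krt18 stood at 85.4 ± 53.6 and 131 ± 18.5 FPKM, a log2 difference of −1.23 (unadjusted p = 0.0382, adjusted p = 0.565). For Krt7 the log2 difference was −0.91 (95% interval −3.19 to 1.38) and for Krt8 −0.34 (−1.83 to 1.14). The direction of Krt8 is not settled, at 0.21 without genotype in the model and 0.20 over Brca1het allografts alone. The ratio of Krt19 to Krt18 was −4.74 ± 0.68 in CRC and −3.67 ± 0.12 in EpiC allografts (exact permutation p = 0.0667, adjusted p = 0.15). That ratio test left out genotype.

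**Figure D5:**
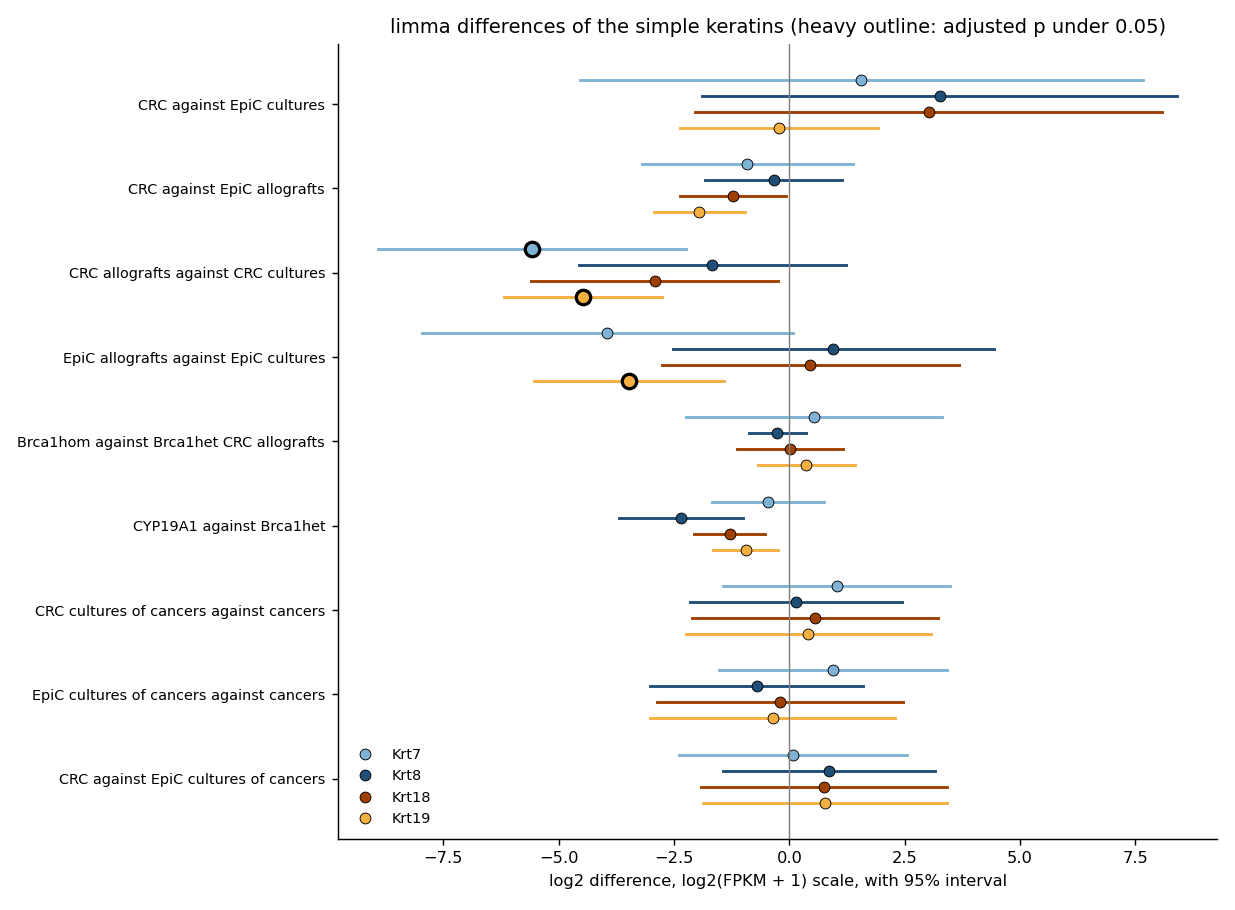
Log2 differences of each keratin on the log2(FPKM + 1) scale with 95% intervals from limma, for 9 comparisons; a heavy outline marks an adjusted p under 0.05. Only Krt7 and Krt19 in CRC allografts and Krt19 in EpiC allografts, each against cultures, are marked.

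Genotype was compared in a pair of ways, and no keratin was called. Between Brca1hom and Brca1het CRC allografts (n = 3 each) limma called 0% of genes, with 10.4% at an unadjusted p under 0.05. Krt8 stood at 226 ± 28.2 FPKM in Brca1hom and 277 ± 77.4 in Brca1het, a log2 difference of −0.27 (95% interval −0.88 to 0.35, adjusted p = 0.723). Krt7 stood at 14.8 ± 23.8 and 3.30 ± 2.63 FPKM (log2 0.54, adjusted p = 0.886). That difference turned to −0.94 without CRC allograft 1. Krt18 differed by 0.02 and Krt19 by 0.37.

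Between CYP19A1 and Brca1het libraries, over cultures and allografts with medium and state in the model, 0 keratins were called, where 0.0163% of genes were called and 5.52% had an unadjusted p under 0.05. All 4 values were lower in CYP19A1, at −2.35 for Krt8 (SE 0.60, unadjusted p = 0.00288, adjusted p = 0.672), −1.29 for Krt18 (SE 0.35, unadjusted p = 0.00398, adjusted p = 0.718), −0.95 for Krt19 (unadjusted p = 0.0131, adjusted p = 0.812) and −0.47 for Krt7 (adjusted p = 0.859). CRC allograft 6C carried the lowest Krt8, Krt18 and Krt19 of all allografts, and EpiC allograft 7B had the lowest Krt8 of the EpiC allografts.

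The genes of keratin anchorage and control were followed in 7 lists. These lists were chosen with earlier results of these data known, so their counts are a description and not independent support. In allografts against cultures, 16.4% of all genes were called as lower and 18.2% as higher. Of the desmosome and linker genes, which tie keratin filaments to cell junctions, 10 of 12 tested fell and 0 rose, with a median of −3.05 on the log2 scale. Dsp (desmoplakin, the plaque protein that binds keratin) stood at 198 ± 19.2 FPKM in CRC cultures, 6.39 ± 5.74 in EpiC cultures, 0.695 ± 1.56 in CRC allografts and 0.489 ± 0.316 in EpiC allografts, and differed by −4.92 (adjusted p = 4.99e-04). Of 8 stratified keratins 7 fell (median −5.41), led by Krt5 (−6.63), Krt17 (−6.16) and Krt6a (−6.15). Krt80, the tested member of 3 other simple-epithelial keratins, fell by 1.56. Of 9 non-keratin filament genes 5 rose and 0 fell, among them Vim (vimentin, the filament protein of mesenchymal cells, 2.10) and Nes (nestin, 2.09).

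Of 14 epithelial transcription and splicing regulators 11 fell and 0 rose (median −2.19), led by the splicing regulator Esrp1 (−4.40) and the ETS factors Ehf (−4.19) and Elf3 (−3.76). Of 6 repressors of epithelial genes, Zeb1 (3.04) and Zeb2 (1.96) rose and Snai2 fell (−1.95). Macrophage, endothelial and 4 of 8 fibroblast markers rose in the same contrast as Vim, Nes, Zeb1 and Zeb2. The part of such cells in these changes was not tested. Of 10 keratin regulators and chaperones 1 rose and 3 fell, the latter being the small heat shock protein gene Hspb1 (−3.22), the 14-3-3 gene Sfn (−3.13) and the chaperone gene Dnajb6 (−0.78), a share near the 34.5% of all genes called in this contrast. Zeb1 stood at 0.387 ± 0.107 FPKM in CRC cultures, 9.13 ± 3.02 in EpiC cultures, 25.3 ± 4.42 in CRC allografts and 24.7 ± 12.1 in EpiC allografts.

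Several partner lists differed between the media in culture, where 11.4% of all genes were called as higher in CRC and 11.7% as lower. In CRC cultures 9 of 13 desmosome and linker genes and 7 of 9 stratified keratins were higher and 0 were lower, with Perp (a desmosomal protein gene) at 6.45 and Krt5 at 10.80 on the log2 scale. Of 5 non-keratin filament genes Vim was lower in CRC cultures (−2.74), at 249 ± 111 FPKM against 1567 ± 226. Of 14 epithelial regulators 6 were higher, led by Grhl1 (3.92) and Tfap2c (3.53), and 5 of 6 repressors were lower, led by Snai1 (−3.71). Vim and the repressors moved there with 7 of 8 fibroblast markers, called as lower in CRC cultures (median −5.59), with Col1a1 at 5.33 to 6.79 FPKM in CRC and 657 to 1436 in EpiC cultures, and the part of such cells was not tested. For the change from culture to allograft, the interaction of medium and state (CRC minus EpiC) was called as negative for 8 of 12 desmosome genes, 6 of 8 stratified keratins and 7 of 14 epithelial regulators, and as positive for 5 of 6 repressors. Over all genes 5.87% were called as negative and 6.35% as positive. Within EpiC alone, with EpiC culture 3 kept, the median change was −0.02 for the stratified keratins, with 0 called, where 14.2% of all genes were called. For the repressors it was −0.69, with 1 called in each direction. Between CRC and EpiC allografts and in both genotype comparisons 0 genes of the 7 lists were called with limma.

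Over the 16 cultures and allografts the genes most like each keratin differed between members. By Pearson's r of log2(FPKM + 1) over 12325 genes, given as a description across libraries that share states and media, Krt7 was most like the tight junction genes Cldn3 (0.972) and Marveld3 (0.967) and Epcam (0.966), all over libraries that fall into a high and a low set. Krt8 was most like Dusp28 (0.884) and the chloride channel gene Ano1 (0.883), for which r with Krt7 was 0.288 and 0.340. EpiC culture 3 was the lowest of the 16 libraries for Krt8 (0.275 FPKM), Dusp28 (0.85) and Ano1 (0.0509). No r with these genes was taken without it. Krt18 was most like Spns2 (a sphingosine phosphate transporter gene) and Tspan14, both at 0.883. EpiC culture 3 was again the lowest library, at 0.684 FPKM for Krt18, 0.186 for Spns2 and 11.1 for Tspan14. Between Krt8 and Krt18 r was 0.88, and 0.70 without EpiC culture 3. Krt19 was most like the acute-phase gene Orm1 (0.925) and Smim22 (0.906). Ranked by the lowest of its 4 r values, the gene closest to all 4 keratins was Wfdc2, a secreted protease inhibitor gene (0.705), followed by Spns2 (0.693). Over the 10 allografts alone the highest were Rgl3 (0.629) and Ivd (0.595).

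Among themselves, the 4 genes varied together to different degrees in the allografts. No r is given for the 6 cultures, of which 5 were high and EpiC culture 3 was near 0. In the 10 allografts r was 0.59 between Krt8 and Krt18, 0.01 without CRC allograft 6C, and −0.11 between Krt7 and Krt8. Krt18 and Krt19 had an r of 0.85 there, and 0.70 without 6C. These values are descriptions over few libraries.

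In the primary cancers and their cultures all 4 keratins were abundant in every library. Krt7 stood at 174 and 1059.9 FPKM in cancers 1 and 2, 471 and 1628 in their CRC cultures and 1061 and 652 in their EpiC cultures. Krt8 stood at 375 and 1694 FPKM in the cancers, 451 and 1729.7 in the CRC cultures and 475 and 498 in the EpiC cultures. Krt18 stood at 478 and 1247 FPKM in the cancers, 363 and 3513 in the CRC cultures and 648 and 693 in the EpiC cultures. Cancer 2 and its CRC culture were the higher of each pair for these genes, and the EpiC cultures lay close together for Krt8 and Krt18. The FPKM of all genes summed to 1615927 in the CRC culture of cancer 2 and to 607519 in cancer 2. As a share of that sum, the 4 keratins made up 0.477% in this culture and 0.72% in cancer 2. Krt19 stood at 110 and 373 FPKM in the cancers, 85.9 and 833 in the CRC cultures and 139 and 177 in the EpiC cultures.

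No keratin was called in any comparison of the cancers with limma. The CRC cultures differed from the cancers by 1.03 for Krt7, 0.15 for Krt8, 0.55 for Krt18 and 0.41 for Krt19 on the log2 scale, where 0.889% of genes were called and 7.02% had an unadjusted p under 0.05. The EpiC cultures differed from the cancers by 0.95, −0.71, −0.21 and −0.36 in the same order, where 0.677% of genes were called and 6.80% had an unadjusted p under 0.05. The cultures differed from each other, CRC minus EpiC, by 0.07, 0.86, 0.75 and 0.77, where 0.00815% of genes were called and 1.63% had an unadjusted p under 0.05. The 95% intervals were wide, from −2.15 to 2.45 for Krt8 in CRC cultures of cancers against cancers. The first and second of these comparisons share the cancers. Macrophage markers stood at 1015 to 1483 FPKM in sum in the cancers and at 9.07 to 36.7 in their cultures, while epithelial markers stood at 1302 to 3238 in all 6, and the part of these cells in the keratin values was not tested.

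Proportions within a library are given beside those of the first table without a test, since the tables were normalised separately. Krt7 per Krt8 was 0.464 and 0.626 in cancers 1 and 2, and Krt8 per Krt18 was 0.784 and 1.36. Krt19 per Krt18 lay between 0.215 and 0.299 in all 6 libraries of the second table, against 0.0171 to 0.0871 in the allografts. The 4 genes made up 92.1 and 88.4% of keratin FPKM in the cancers, 97.9 and 92.2% in the EpiC cultures and 78.8 and 62.6% in the CRC cultures. The basal keratin Krt5 stood at 24.0 to 917 FPKM in these CRC cultures and at 0.193 to 0.198 in the EpiC cultures, and 0 of 7 stratified keratins were called with limma.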

How the data were processed

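Polyadenylated RNA was sequenced in 22 mouse libraries. The deposited values are FPKM, per the names of the authors' 2 tables. The submitters' processing notes name FastQC, Trim Galore, TopHat, Cufflinks and the build mm9, without versions or roles. Neither the annotation nor how libraries were scaled is given in the sources used here. FPKM show no depth, so their number of fragments and counting error are unknown. Because each table has its own normalisation, no test spans both; entries with the same symbol were summed (23735 entries for 23490 symbols in the second table). Among 24 keratin values of the second table, 11 had over 6 digits, and 10 of these had a last digit of 5, as averaging a pair of 6-digit values would give, against 0 of 64 values in the first; whether they are means was not tested.

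Libraries were grouped by their titles. Genes averaging 1 FPKM or more were tested with limma 3.58.1 (R 4.3.3; lmFit, eBayes with a trend) on log2(FPKM + 1), with Benjamini-Hochberg adjustment over all genes of a fit. Ratios of FPKM + 0.1 were tested with scipy 1.17.1 by exact permutation, without genotype or medium. Named genes were the members, the genes most like them by Pearson's r (3 per member, 5 shared by all), up to 3 called genes per partner list and comparison whose higher group reached 5 FPKM, and the first 3 genes of each marker list. The members and lists were chosen with earlier results of these data known. The fit was tested on simulated data. Alternatives were a pseudocount of 0.1, a filter of 5 FPKM or none, leaving out each library, scaling by median ratios, models without genotype or over Brca1het allografts alone, and the mean of CRC allografts 10B and 10C as 1 sample. Same-numbered libraries of the second table share a cancer, as their titles state. Their deviations from the group means correlated at −0.0555 (cancers and CRC cultures), −0.113 (cancers and EpiC cultures) and 0.242 (both cultures), and the main model had no block. Sequences are from RefSeq (GRCm38.p6) for the 3 members matched, and no coordinates of mm9 are given. The Krt19 promoter was not used here.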

Additional observations from a re-analysis of the deposited data

Results flagged for a closer look

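Krt7 stood at 42.3 FPKM in CRC allograft 1, far above the other 6 CRC allografts, of which 11C was the next at 6.33 FPKM. Its gap to the next library, as a share of the range of the group, passed the 95% limit of Dixon's test for 7 values. For normally spread values chance alone passes that limit in about 1 in 20 groups. The test used FPKM, which spread unevenly, and was not run on their logs. It was run for each keratin and each ratio in this group, so a flag by chance somewhere is more likely than that. The same library had the highest Epcam (25.6 FPKM), Cdh1 (11.2 FPKM among CRC allografts) and Cldn7 (4.91 FPKM) and the highest Krt14 (132 FPKM) of the CRC allografts, and the part of these in the value of Krt7 was not tested. Without it, Krt7 was still called as lower in CRC allografts than in CRC cultures, at −6.29 on the log2 scale (limma adjusted p = 0.00255).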

How the results depend on the processing

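The call of Krt7 and Krt19 as lower in allografts held under all 22 alternatives (limma adjusted p up to 0.0283 and 0.00188), as did that of Krt19 within CRC (up to 0.00839). The number of keratins called ranged from 2 to 4 in allografts against cultures, from 1 to 4 within CRC and from 0 to 3 within EpiC when a library was left out, and within EpiC it was 0 with a pseudocount of 0.1 and 0 with no filter on low values. The Krt8 to Krt18 difference between allografts and cultures ranged from 1.18 to 1.57 in that way. Krt8 in CRC against EpiC allografts turned to 0.21 without genotype and 0.20 over Brca1het alone.

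Leaving out a library also turned uncalled differences, with these ranges on the log2 scale. For CRC against EpiC cultures they were −1.74 to 3.99 (Krt7) and −1.34 to 0.69 (Krt19), and for the allografts −1.50 to 0.42 (Krt8). For EpiC allografts against EpiC cultures they were −1.44 to 2.81 (Krt8) and −1.86 to 2.04 (Krt18), and for the interaction −3.76 to 0.66 (Krt7) and −2.11 to 0.15 (Krt19). For Brca1hom against Brca1het they were −0.94 to 1.45 (Krt7) and −0.50 to 0.44 (Krt18), and for CYP19A1 against Brca1het −0.86 to 0.10 (Krt7). For CRC cultures of cancers against cancers they were −0.27 to 2.33 (Krt7), −0.94 to 1.24 (Krt8), −1.09 to 2.18 (Krt18) and −1.23 to 2.04 (Krt19). For EpiC cultures of cancers they were −0.35 to 2.25, −1.80 to 0.38, −0.90 to 0.48 and −1.24 to 0.52, and between both kinds of culture −0.82 to 0.97, −0.11 to 1.83, −0.88 to 2.39 and −0.86 to 2.40, in the same order. The cause of these turns was not tested.

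Counts over all genes moved more. CRC against EpiC cultures gave 2741 genes, 1658 with no filter and 159 to 2091 without a library (159 without CRC culture 2). CRC against EpiC allografts gave 1, with 0 under a pseudocount of 0.1, other filters or 10B and 10C as 1 sample, 17 over Brca1het alone and 0 to 47 without a library (47 without CRC allograft 1). EpiC allografts against cultures gave 1750, 1154 with a filter of 5 FPKM and 997 to 2200 without a library, and the interaction 1506, 1000 and 760 to 2243. Brca1hom against Brca1het gave 0, and 26 without CRC allograft 1. CYP19A1 against Brca1het gave 2, with 0 with no filter, with a filter of 5 FPKM or with 10B and 10C as 1 sample, and 0 to 1 without a library. CRC cultures of cancers against cancers gave 109, 284 with no filter, 59 with a filter of 5 FPKM and 0 to 272 without a library. EpiC cultures of cancers gave 83, 284, 43 and 0 to 284, and between both cultures 1, 0, 5 and 0 to 12, with 5 under a pseudocount of 0.1 and 3 after rescaling.

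With a replicate block for the cancer, these counts were 58, 29 and 0, the number of keratins called stayed at 0, and Krt7 differed by 1.03 in CRC cultures of cancers (limma adjusted p = 0.802); the block changed no keratin call. Where 1 library was left in a group, it was assumed to vary like the others. At a filter of 5 FPKM Krt19 was not tested between Brca1hom and Brca1het. Depth is not known, so values near 1 FPKM carry an unknown counting error.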

Other observations

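Wfdc2, the gene with the closest pattern to all 4 keratins, stood at 427, 314 and 355 FPKM in CRC cultures 1, 2 and 3, at 1489.8, 554 and 0.31 in EpiC cultures 1, 2 and 3, and between 1.82 (CRC allograft 6C) and 236 (EpiC allograft 5A) in the allografts. In the 6 libraries of cancers and their cultures its r was 0.87 with Krt7, 0.68 with Krt8, 0.80 with Krt18 and 0.77 with Krt19, given as a description. Wfdc2 stood at 5993 FPKM in the CRC culture of cancer 2 and at 186 to 1029 in the others. No r was taken without that library. Of the next genes closest to all 4 keratins, Spns2 (−0.30 to −0.08), Rhbdf2 (−0.46 to −0.10) and Plet1 (−0.71 to −0.24) had negative r there. Itga3 had r from −0.03 to 0.63. The likeness of Krt7 to Epcam did not recur there, with an r of −0.82 between them over libraries that all held Epcam at 174 to 864 FPKM.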
